A study of Mus musculus with 10 samples.

Results

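One oligo-astrocytoma that arose after adenovirus carrying Cre recombinase (AdCre) was injected into the brain ventricles (replicate 44) was set against 3 oligo-astrocytomas that grew from grafted neurospheres (replicates 4, 5 and 6). These are 4 of the 10 mouse samples, chosen by the tumour type and derivation that the labels give. The donors of the injected brain and of the spheres carried floxed copies of Trp53, which encodes the tumour suppressor p53, and of Rb1, which encodes the retinoblastoma protein, on a mixed background of C57, FVB and mainly 129 Ola. In the grafted group, spheres were transduced with AdCre in culture and then implanted. Also on the arrays were 3 primitive neuroectodermal tumours (PNET, replicates 1, 2 and 3) raised by the same ventricular AdCre injection, and passage 3 neurospheres, 2 with AdCre and 1 with a control adenovirus carrying green fluorescent protein (AdGFP). The labels give neither ages nor the graft host, and they do not say whether the 3 grafts came from separate animals or sphere lines, so the tests measure the spread between these samples. The difference between the derivations and that between this 1 tumour and any other cannot be told apart.

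RNA of dissected tumour was hybridised to 1-colour Affymetrix mouse exon arrays, and the values are log2 expression levels of 23238 transcript clusters, covering 14807 named genes. Array medians ran from 5.87 to 6.06. The AdCre-induced tumour correlated with the 3 grafts at 0.951 to 0.962 over all transcript clusters, and the grafts with each other at 0.961 to 0.967. Rb1 read 6.97 in the AdCre-induced tumour, against 6.36, 7.24 and 6.63 in the grafts, and its transcript cluster may include probes outside the deleted part. Trp53 was not analysed here. In bulk tissue, fewer cells of a type and less RNA per cell cannot be told apart.

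Oligo-astrocytoma is a glioma that holds both astrocyte-like and oligodendrocyte-like tumour cells. The label was checked by 8 markers of these lineages, each of which read above the PNET range in all 4 tumours. Gfap, the intermediate filament of astrocytes, read 9.10 in the AdCre-induced tumour, against 8.55, 9.07 and 9.43 in the grafts and 4.55 to 6.79 in PNET. Olig2, a transcription factor of the oligodendrocyte lineage, read 9.08, against 8.88, 9.19 and 9.46 in the grafts and 5.76 to 6.15 in PNET. Pdgfra, the growth factor receptor of oligodendrocyte precursors, read 10.85, against 10.92 to 11.29 in the grafts and 4.54 to 4.69 in PNET. The astrocyte markers S100b and Aldoc and the oligodendrocyte lineage markers Olig1, Sox10 and Cspg4 were the others of the 8. Not every gene of the lineage lists stood above PNET. The astrocyte gap junction gene Gjb6 read 5.10 in the AdCre-induced tumour, inside its PNET range of 4.82 to 5.27, and the myelin gene Mobp read 5.03, below its PNET range of 5.21 to 5.46.

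Interferons are secreted proteins that cells release on sensing viral nucleic acid or on immune activation. Their receptors signal through Janus kinases, STAT proteins and interferon regulatory factors to a broad set of target genes, which block virus entry and replication, destroy pathogen compartments and raise antigen presentation. Type I interferon acts mainly through the interferon-stimulated response element, whose core is read by STAT and IRF proteins, and interferon gamma mainly through the gamma-activated site.

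The promoter windows of 3 interferon-induced genes that were higher in the AdCre-induced tumour are shown because the interferon element can be read in each. They run from 250 bases before to 50 after the start of the gene, 5′ to 3′ on the gene's strand, from RefSeq on GRCm38.p6, and the capitals mark each match to the core GAAANNGAA on either strand. Ifitm3 lies at chr7:141010695-141010994 on the minus strand and has 2 matches. Gbp5 lies at chr3:142496684-142496983 and Gbp2 at chr3:142620413-142620712, both on the plus strand with 1 match each.
Ifitm3: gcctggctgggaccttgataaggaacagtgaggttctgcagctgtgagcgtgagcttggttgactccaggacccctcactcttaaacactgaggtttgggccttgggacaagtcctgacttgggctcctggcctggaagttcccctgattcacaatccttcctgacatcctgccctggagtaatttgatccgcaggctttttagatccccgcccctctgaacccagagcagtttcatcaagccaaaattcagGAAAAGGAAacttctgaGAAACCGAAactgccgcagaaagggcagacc
Gbp5: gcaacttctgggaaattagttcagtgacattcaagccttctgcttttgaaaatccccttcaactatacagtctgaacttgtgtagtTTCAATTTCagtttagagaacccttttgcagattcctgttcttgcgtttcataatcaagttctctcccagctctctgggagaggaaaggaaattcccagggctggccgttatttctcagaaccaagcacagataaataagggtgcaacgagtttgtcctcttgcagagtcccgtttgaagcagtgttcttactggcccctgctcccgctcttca
Gbp2: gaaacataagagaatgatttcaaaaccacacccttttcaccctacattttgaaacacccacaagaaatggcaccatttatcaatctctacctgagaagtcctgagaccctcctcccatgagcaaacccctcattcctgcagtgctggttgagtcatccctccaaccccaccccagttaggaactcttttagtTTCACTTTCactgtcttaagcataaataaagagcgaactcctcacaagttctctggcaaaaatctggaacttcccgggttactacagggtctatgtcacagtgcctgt

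Of all 27025 promoter windows of this length, 8.57% held the core, as did 7.63% of the 11855 windows of measured genes. It stood in 16 of the 29 windows found for the measured interferon-stimulated genes and interferon-inducible GTPases (55.2%). Among genes called higher in the AdCre-induced tumour, it stood in 6 of 19 windows outside the distal stretch of chromosome 7 from Zfp941 to Mrgprd (31.6%) and in 2 of 29 inside it (6.90%). The gamma-activated site TTCNNNGAA, searched on both strands and able to overlap the core, was in 8.47% of all windows and in 8 of the 29 of the interferon lists (27.6%). Among genes called higher it was in 4 of the 19 outside distal chromosome 7 (21.1%) and in 1 of the 29 inside it (3.45%). A match is a stretch of letters and not a shown binding site.

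Against the grafts, 70 transcript clusters passed the threshold (limma, Benjamini-Hochberg adjusted p under 0.05), 67 higher and 3 lower in the AdCre-induced tumour, which is 0.288% and 0.0129% of all. Among named genes 59 were higher (0.398%) and 1 was lower (0.00675%), and 1755 transcript clusters had an unadjusted p under 0.05. Since there is only 1 AdCre-induced array, its spread was taken from the replicated groups. All 70 lay outside the range of the 3 grafts. Without a test, 28.1% of named genes lay above the highest graft and 25.0% below the lowest, and 2.03% lay at least 1 log2 unit above and 0.284% at least 1 below. These shares are the background for every count of list members outside the graft range given below. The named genes called higher fell into 3 sets. In the first were 32 genes of distal chromosome 7, and in the second 11 genes, elsewhere in the genome, from the lists of interferon response, antigen presentation and chemokine genes. The third set held the other 16. Ifitm3 belongs to both of the first sets and is counted in the first.

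**Figure D1:**
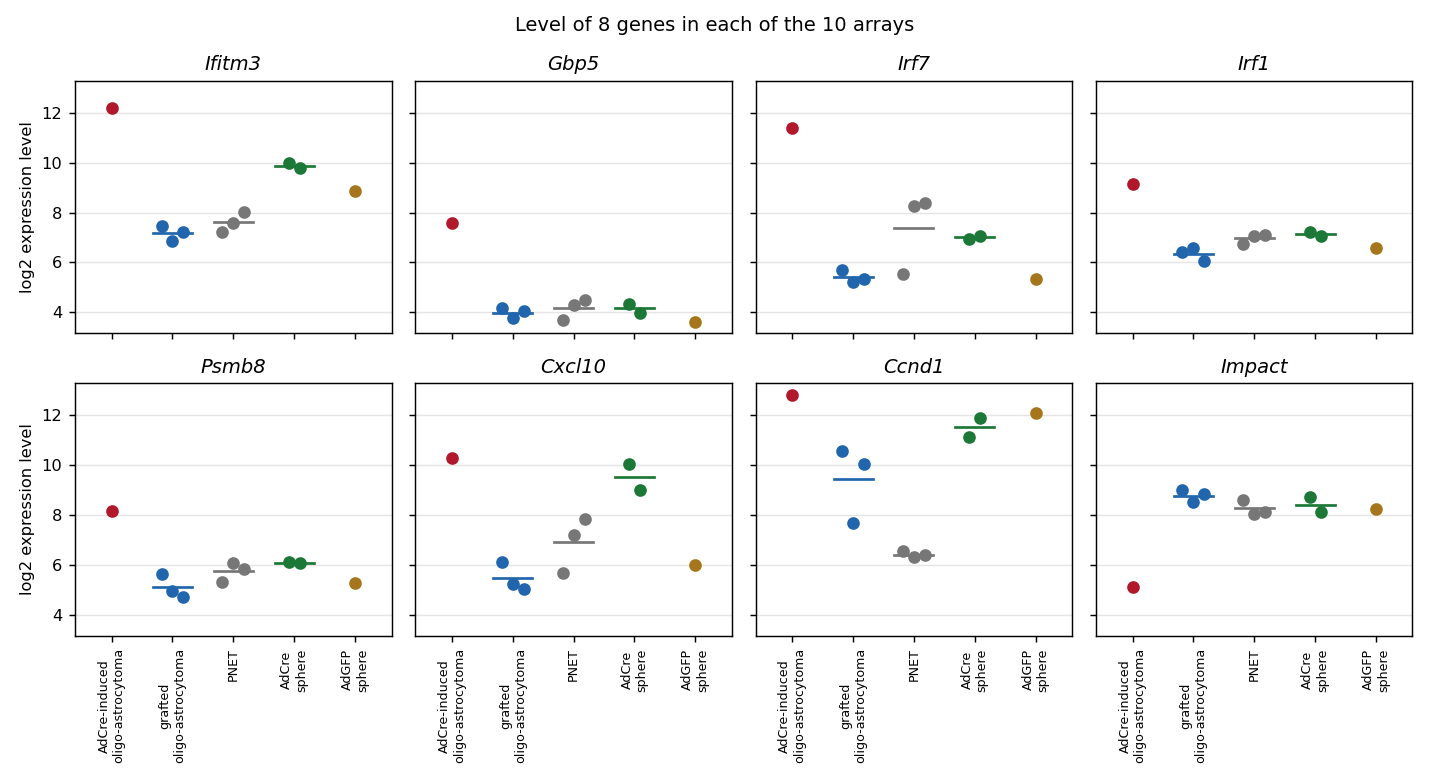
Log2 expression level (vertical axis) of 8 genes in each array, with points for single samples and lines for group means, the AdCre-induced oligo-astrocytoma at the left of each panel and the 3 grafts next to it. Ifitm3, Gbp5, Irf7, Irf1, Psmb8, Cxcl10 and Ccnd1 read higher in the AdCre-induced tumour than in every graft, and Impact read lower in it than in all 9 other samples.

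Ifitm3, a membrane protein that traps entering viruses in endosomes, read 12.21 in the AdCre-induced tumour, against 7.45, 6.86 and 7.20 in the grafts (7.17 ± 0.30, SD, n = 3). The AdCre-induced value stood 4.76 log2 units above the highest graft, and PNET read 7.21, 7.58 and 8.03. The difference was 5.04 ± 0.36 (SE), or 32.9-fold, with an adjusted p of 0.00273 in limma. AdCre spheres read 9.98 and 9.77 and the AdGFP sphere 8.85, above the grafts and below the AdCre-induced tumour. Zbp1, a sensor of Z-form nucleic acid that can start necroptosis, read 8.88, against 5.41, 5.02 and 5.27 in the grafts, a difference of 3.64 ± 0.39 (adjusted p = 0.0111). Trim25, a ubiquitin ligase that activates the RNA sensor RIG-I, read 7.75, against 4.87, 5.13 and 4.79 in the grafts, a difference of 2.82 ± 0.32 (adjusted p = 0.0159). In both genes the AdCre-induced value lay above the highest graft, as it did in 28.1% of all named genes.

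These were the 3 called higher of 35 measured interferon-stimulated genes, from a list of 55, and 0 were lower. The filter on dim transcript clusters gave 5 called, the mean over a gene's transcript clusters 6, array weights 7 and the fit of the 4 oligo-astrocytomas 0. All 35 lay above the highest graft, 32 of them by at least 1 log2 unit, and the median difference was 2.30, against 0.01 for all named genes. The list's mean level was 7.92 in the AdCre-induced tumour, against 5.69, 5.28 and 5.27 in the grafts. It was 5.37, 6.64 and 6.72 in PNET, so PNET replicates 2 and 3 stood about midway and PNET replicate 1 among the grafts. Large differences in the list often missed the threshold. Oasl2, an oligoadenylate synthetase-like protein, read 10.10, against 6.78, 5.98 and 5.60 in the grafts (3.98 ± 0.80, adjusted p = 0.125). Bst2, or tetherin, which holds budding viruses at the cell surface, read 9.57, against 6.58, 5.82 and 5.90 in the grafts (3.47 ± 0.54, adjusted p = 0.0558, and 0.0236 with array weights). Parp14, an ADP-ribosyltransferase, read 10.06, against 6.52, 6.30 and 6.14 in the grafts (3.74 ± 0.70, adjusted p = 0.101). The SE of these differences was larger than that of Ifitm3 (0.36), and Oasl2 itself spanned 5.94 to 8.20 over PNET. The smallest gap of the list was in Isg20, an exonuclease, with 5.97, against 5.43, 5.88 and 5.47 in the grafts.

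The interferon-inducible GTPases, which coat and disrupt pathogen vacuoles, had 3 of 6 measured members called higher and 0 lower, with a median difference of 4.08. Gbp5, which also promotes inflammasome assembly, read 7.58, against 4.17, 3.75 and 4.04 in the grafts and 3.69, 4.30 and 4.48 in PNET. The difference from the grafts was 3.60 ± 0.34 (adjusted p = 0.00694), with all 3 grafts below the lower quartile of their arrays, so its size is uncertain. Gbp2, a guanylate-binding protein of the same family, read 8.93, against 5.44, 5.15 and 4.99 in the grafts, a difference of 3.73 ± 0.45 (adjusted p = 0.0171). Tgtp1, an immunity-related GTPase, read 7.88, against 4.65, 3.99 and 4.31 in the grafts, a difference of 3.56 ± 0.41 (adjusted p = 0.0159). Gbp3, Gbp7 and Irgm1 had larger differences that did not pass, at 4.68 ± 1.0 (adjusted p = 0.158), 4.61 ± 0.81 (0.0822) and 4.42 ± 0.98 (0.171). All 6 lay at least 1 log2 unit above the highest graft, and without graft 5 or without graft 6 only 1 of them was called.

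**Figure D2:**
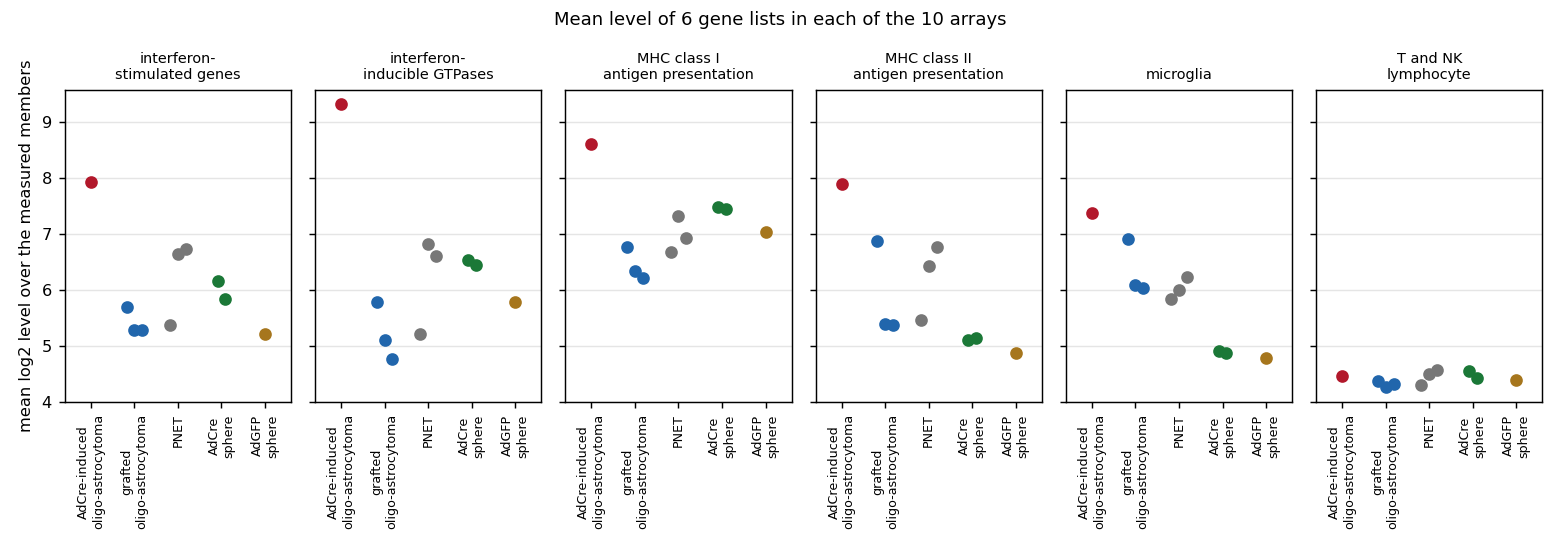
Mean log2 level over the measured members of 6 gene lists (vertical axis) in each array, 1 point per sample, the AdCre-induced oligo-astrocytoma at the left and the 3 grafts next to it. The AdCre-induced tumour has the highest mean of all 10 arrays for the interferon, MHC and microglia lists, while the T and NK lymphocyte means lie close together in all groups.

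Upstream of these targets are the interferons, their receptors and the factors that carry the signal. Ifnb1, encoding interferon beta, read 4.50 in the AdCre-induced tumour, against 4.32, 3.94 and 4.64 in the grafts, and Ifng, encoding interferon gamma, 4.99, against 5.15, 5.26 and 4.53 in the grafts. The AdCre-induced value lay inside the graft range for both, and these levels were near the lower quartile of the arrays (4.43 in the AdCre-induced tumour). Ifnar1, a chain of the type I interferon receptor, read 8.15, against 8.57, 8.25 and 8.20 in the grafts, and Ifngr1 of the interferon gamma receptor 7.83, against 7.70, 7.44 and 6.87 in the grafts. Neither difference passed (adjusted p = 0.991 and 0.913). Irf1, a transcription factor which interferon gamma induces, was the 1 member called among 26 measured receptor and signalling genes. It read 9.14, against 6.42, 6.58 and 6.07 in the grafts and 6.75, 7.05 and 7.11 in PNET, a difference of 2.78 ± 0.28 (adjusted p = 0.0076). Irf7, the main amplifier of type I interferon production, read 11.38, against 5.70, 5.22 and 5.32 in the grafts. Its difference of 5.96 ± 0.94 exceeded that of Ifitm3 and missed the threshold (adjusted p = 0.0575), which it passed under the filter on dim transcript clusters (0.0339), with array weights (0.0231) and with the mean over a gene's transcript clusters (0.0371). PNET spanned 5.53 to 8.38. Stat2, Irf8 and Irf9 read 9.67, 8.43 and 8.97 in the AdCre-induced tumour, each above the highest graft (at 6.83 to 7.20, 5.44 to 6.57 and 6.26 to 6.61 in the grafts), and none passed (adjusted p = 0.146, 0.0866 and 0.101). Without graft 4, 2 members of the list were called. Of the 26, 18 lay above the highest graft and 3 below the lowest, with a median difference of 0.61.

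Genes that present peptides on MHC class I had 4 of 11 measured members called higher and 0 lower, with all 11 above the highest graft and a median difference of 1.92. Psmb8, an immunoproteasome subunit, read 8.15, against 5.63, 4.97 and 4.72 in the grafts, a difference of 3.04 ± 0.40 (adjusted p = 0.0237). The subunit Psmb10 read 8.90, against 7.08, 6.79 and 6.89 in the grafts, a difference of 1.98 ± 0.23 (adjusted p = 0.0163). Tap2, part of the transporter that moves peptides into the endoplasmic reticulum, read 7.52, against 5.86, 5.42 and 5.53 in the grafts, and Tapbpl, which edits the loaded peptides, 7.22, against 5.45, 5.44 and 5.34 in the grafts. These 2 differences were 1.92 ± 0.29 (adjusted p = 0.0453) and 1.81 ± 0.26 (0.0322). Their partners Tap1 and Psmb9 differed more but did not pass, at 3.89 ± 0.73 (adjusted p = 0.101) and 3.50 ± 0.60 (0.0751). B2m, the light chain of MHC class I, read 11.96, against 9.65 to 10.81 in the grafts (adjusted p = 0.266). Without graft 4 only 2 of the 11 were called, and without graft 5 or graft 6 it was 0, with those lost at an adjusted p of 0.0648 to 0.144 without graft 5. Of the list's 27 genes, 16 were not analysed here, class I heavy chain genes among them.

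MHC class II genes, which antigen-presenting cells use, had 0 of 6 members called in limma, although 4 had an unadjusted p under 0.05 and 5 lay above the highest graft. H2-Aa read 10.67 in the AdCre-induced tumour, against 8.97, 6.47 and 6.33 in the grafts, so graft replicate 4 stood well above the other 2 grafts. Its difference of 3.41 ± 1.17 did not pass (adjusted p = 0.487), nor did that of Cd74, the class II invariant chain, at 2.82 ± 0.99 (adjusted p = 0.502).

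Among chemokines, 1 of 22 was called higher and 0 lower, with a median difference of 1.02. Ccl2, which draws monocytes, read 7.30, against 5.67, 5.20 and 5.26 in the grafts, a difference of 1.92 ± 0.27 (adjusted p = 0.0322, and 0.112 and 0.116 without grafts 5 and 6). The ligands of Cxcr3, which attract activated T cells, had the largest differences of the list. Cxcl10 read 10.29, against 6.12, 5.25 and 5.04 in the grafts, a difference of 4.82 ± 0.79 (adjusted p = 0.0622, and 0.0373 with array weights). Cxcl11 and Cxcl9 read 6.31 and 7.03 in the AdCre-induced tumour, above the graft ranges of 3.17 to 3.84 and 4.24 to 4.63 (adjusted p = 0.084 and 0.241). The complement list had 0 of 9 called in limma, 5 at an unadjusted p under 0.05. Complement factor B, Cfb, read 8.20, against 4.87, 4.41 and 4.62 in the grafts (3.57 ± 0.64, adjusted p = 0.0866).

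**Figure D3:**
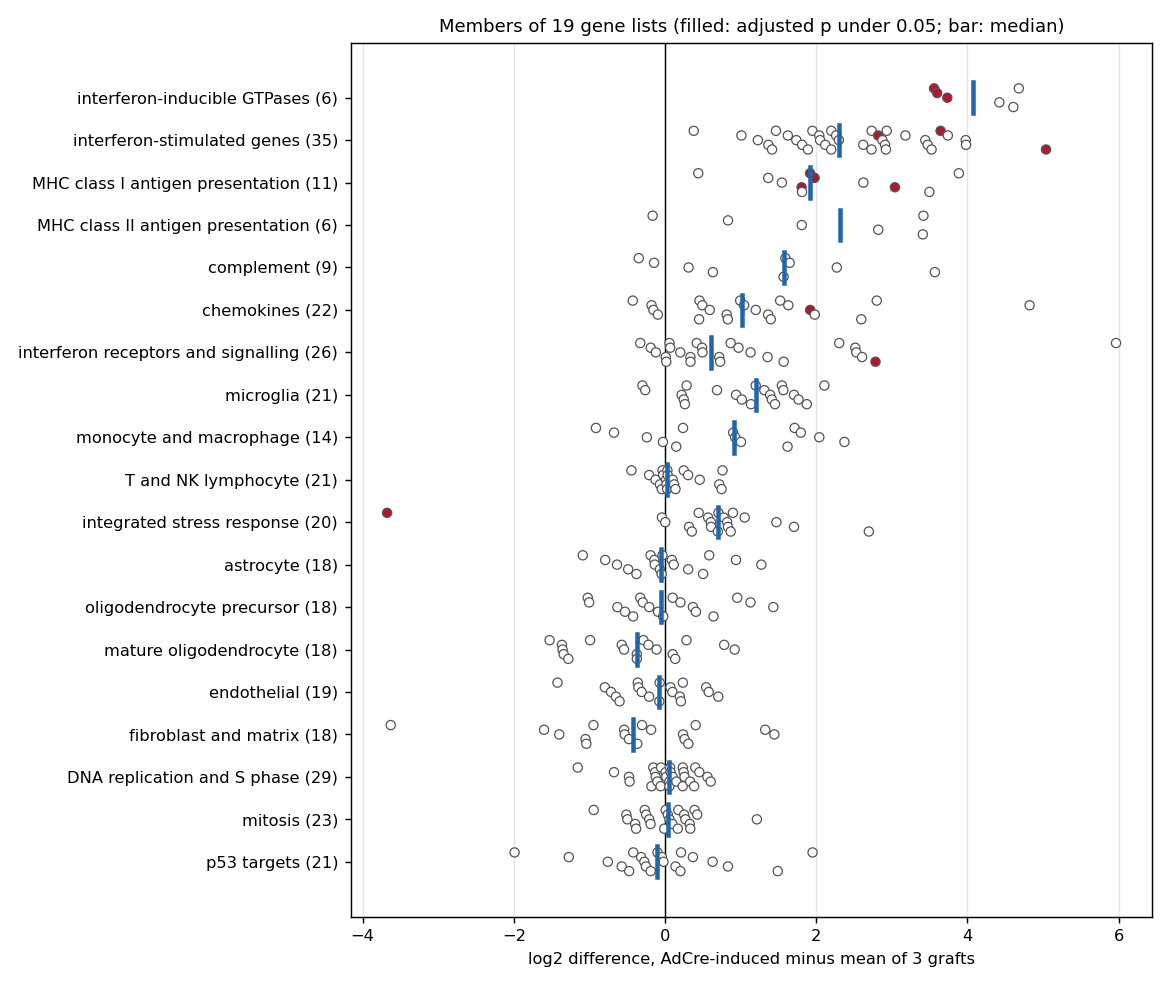
Log2 difference of the AdCre-induced tumour from the mean of the 3 grafts (horizontal axis) for the measured members of 19 gene lists, with 1 point per gene, the number of members in brackets and a bar at each list's median. Filled points passed an adjusted p under 0.05. Most members of the interferon and antigen presentation lists lie right of 0, the tumour lineage and cell cycle lists lie around it, and the lone filled point at the left is Impact.

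Markers of immune cells were measured beside these genes. Of 21 microglia genes, 0 were called in limma (11 at an unadjusted p under 0.05), 15 lay above the highest graft and 0 below the lowest, with a median difference of 1.20. The list's mean was 7.36 in the AdCre-induced tumour, against 6.90, 6.08 and 6.02 in the grafts and 5.83, 5.99 and 6.22 in PNET. In each of the 4 tumours 1 of the 21 lay below the lower quartile of its array. Tmem119 read 6.57, against 5.98, 5.06 and 5.64 in the grafts, while P2ry12 read 5.32, against 5.36, 4.83 and 4.90 in the grafts, inside the graft range. Monocyte and macrophage genes had 0 of 14 called (7 at an unadjusted p under 0.05), 9 above the highest graft and 2 below the lowest, with means of 5.32 in the AdCre-induced tumour and 4.67, 4.40 and 4.56 in the grafts. Below the lower quartile of the array lay 4 of the 14 in the AdCre-induced tumour, and 8, 9 and 8 in the grafts. T and NK lymphocyte genes had 0 of 21 called (2 at an unadjusted p under 0.05) and a median difference of 0.03, with means of 4.45 in the AdCre-induced tumour and 4.37, 4.25 and 4.32 in the grafts. Cd3e, a chain of the T cell receptor complex, read 5.11, against 5.23, 5.23 and 5.26 in the grafts, and Gzmb, a killing protease, 3.77, against 3.08, 3.05 and 3.02 in the grafts. Of these 21 genes 10 lay below the lower quartile of the array in the AdCre-induced tumour, and 9, 13 and 7 in the grafts. The B cell and neutrophil lists had 0 of 8 and 0 of 12 called (1 each at an unadjusted p under 0.05) and medians of 0.04 and 0.11. Lcn2, in the neutrophil list and also made by reactive astrocytes, read 9.38, against 6.80, 7.15 and 7.14 in the grafts (adjusted p = 0.847). In the AdCre-induced tumour the microglia and macrophage lists, like the interferon lists, had means above every graft. Within the grafts, within PNET and within the spheres, the microglia and interferon-stimulated means ran in the same order. For grafts 4, 5 and 6 the microglia means were 6.90, 6.08 and 6.02, and the interferon-stimulated means 5.69, 5.28 and 5.27. For PNET replicates 1, 2 and 3 they were 5.83, 5.99 and 6.22, and 5.37, 6.64 and 6.72. Between groups the order differed. Graft 4 had means of 6.90 and 5.69, PNET replicate 3 had 6.22 and 6.72, and AdCre sphere 1 had 4.90 and 6.16. The part of the microglia and macrophage lists in the interferon result was not tested.

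The third set of called genes, outside distal chromosome 7 and these lists, had mixed roles. Absence from the lists does not place a gene outside the interferon response, so the sizes of the sets depend on the lists. Nmi, which binds STAT proteins, read 7.97, against 5.57, 4.90 and 4.76 in the grafts (2.90 ± 0.34, adjusted p = 0.0168). Mlkl, which ruptures the membrane in necroptosis and acts downstream of Zbp1, read 8.73, against 5.95, 5.78 and 5.09 in the grafts (3.12 ± 0.48, adjusted p = 0.0491). Ube2l6, the conjugating enzyme for the ubiquitin-like Isg15, read 8.0, against 6.08, 6.10 and 5.91 in the grafts (1.97 ± 0.25, adjusted p = 0.0222). Ly6e, the schlafen gene Slfn4 and the myeloid receptor gene Cd300lf had differences of 1.94 ± 0.28, 2.39 ± 0.29 and 2.39 ± 0.34 (adjusted p = 0.035, 0.0171 and 0.0322). Mapk10, the neuronal stress kinase JNK3, read 9.41, against 7.11, 7.24 and 7.20 in the grafts and 4.01, 4.32 and 4.19 in PNET. Its grafts were close together, and the difference of 2.23 ± 0.22 passed (adjusted p = 0.00776). Scn1a, a neuronal sodium channel, and Hpse, the enzyme heparanase, had differences of 2.70 ± 0.36 and 2.28 ± 0.28 (adjusted p = 0.0241 and 0.02). Alox5ap, of leukotriene synthesis, read 7.73, against 5.88, 5.50 and 5.25 in the grafts (2.19 ± 0.29, adjusted p = 0.0237). The leukotriene receptor gene Cysltr2 passed (adjusted p = 0.0174) at 4.12, against 2.26, 2.12 and 2.03 in the grafts, all below the lower quartile of their arrays. Kmo, of the kynurenine pathway, read 4.50, against 2.83, 2.97 and 2.87 in the grafts (adjusted p = 0.0406). Of the 59 named genes called higher, 6 had all 3 grafts below that quartile (Gbp5, Scn1a, Slfn4, BC023105, Cysltr2 and Kmo), and 2 of them, BC023105 and Cysltr2, the AdCre-induced value too, so the size of their differences is uncertain. Tvp23a, a Golgi protein gene, read 8.06, against 4.92, 5.38 and 4.92 in the grafts (2.99 ± 0.26, adjusted p = 0.00597), and Phf19, a Polycomb-associated factor, 7.91, against 5.95, 6.12 and 5.90 in the grafts (1.92 ± 0.26, 0.0271). Apart from Mlkl, these genes lie outside the 15 largest rises and were named after their values were seen.

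The calls varied in how far they depended on single grafts. Of the 11 interferon, antigen presentation and chemokine genes, Gbp5 and Irf1 passed in each of the 3 fits that left out 1 graft, and the other 9 did not pass in at least 1. Without graft 4, 9 of the 11 passed, and without graft 5 or graft 6, 3 of 11 passed. The adjusted p of those that were lost ran from 0.0509 to 0.0579 without graft 4, from 0.0502 to 0.144 without graft 5 and from 0.0590 to 0.140 without graft 6. Of the 16 other genes, 3 passed in all 3 fits (Mapk10, Tvp23a and Ppp2r2d). Those lost had an adjusted p of 0.0547 to 0.0737 without graft 4, 0.0680 to 0.144 without graft 5 and 0.0524 to 0.133 without graft 6. Ifitm3 passed in all 3, with adjusted p of 0.013, 0.0143 and 0.0169 without grafts 4, 5 and 6. In a limma fit of the 4 oligo-astrocytomas alone, 0 transcript clusters passed and 1687 had an unadjusted p under 0.05. The smallest adjusted p there was 0.0516, a tie that Ifitm3 and Gbp5 shared with Gbp2, Zbp1, Irf7, Impact, Ptdss2 and Pnpla2, among others.

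The largest set of called genes lay side by side on distal chromosome 7. From Zfp941 to Mrgprd, 82 named genes were measured, of which 32 were called higher and 0 lower, 67 lay above the highest graft and 3 below the lowest, and the median difference was 1.60. On the rest of chromosome 7, 1 of 1127 genes was called (Ppp2r2d, a regulatory subunit of protein phosphatase 2A, at 2.51 ± 0.29, adjusted p = 0.0163) and the median was -0.08. The 27 named genes just before Zfp941 had 0 called in limma (4 at an unadjusted p under 0.05) and a median of 0.20. The ends of the interval were set after the values were seen, so its counts are a description, and the p of each gene comes from the fit over the whole array. Brightness was judged without the AdCre-induced array, a reading added after the values were seen. Of the 42 genes with a mean over the 9 other arrays above 6, 26 were called and 41 lay above the highest graft, with a median of 2.55. Of the 40 dimmer genes, 6 were called and 26 lay above the highest graft, with a median of 0.37. Most of the 27 genes before Zfp941 were dim. Only 6 of them had a mean over the 9 other arrays above 6, with 0 called and a median of 0.22.

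**Figure D4:**
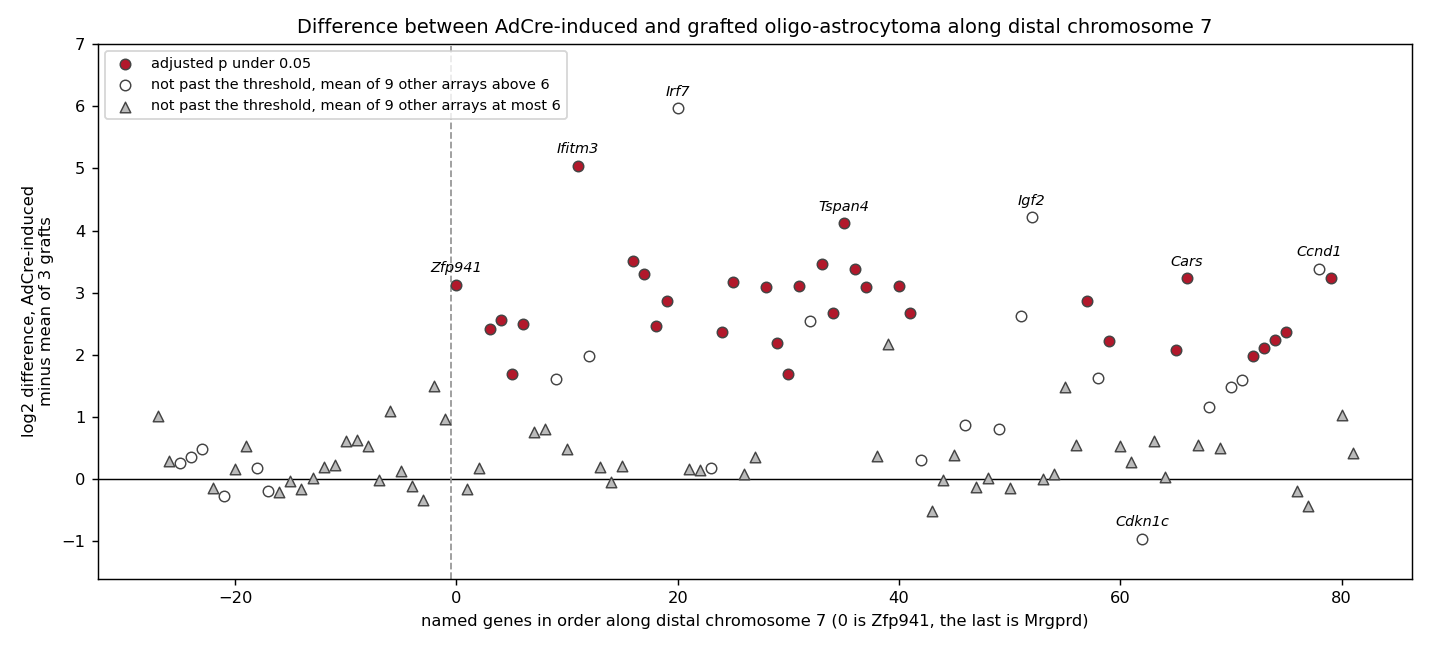
Log2 difference of the AdCre-induced tumour from the mean of the 3 grafts (vertical axis) for named genes in their order along distal chromosome 7 (horizontal axis, gene order on GRCm38.p6), with a dashed line before Zfp941. Filled circles passed an adjusted p under 0.05, open circles are genes with a mean over the 9 other arrays above 6 that did not, and triangles are dimmer genes that did not. The 27 genes left of Zfp941 have a median of 0.20 and the 82 genes from Zfp941 on a median of 1.60. Of these, 6 and 42 have a mean over the 9 other arrays above 6, with medians of 0.22 and 2.55.

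The called genes of this stretch have many different roles. Ptdss2, which makes phosphatidylserine, read 11.13, against 7.55, 7.52 and 7.80 in the grafts and 7.53, 7.55 and 7.71 in PNET, a difference of 3.51 ± 0.25 from the grafts, or 11.4-fold (adjusted p = 0.00273). Pnpla2, the main triglyceride lipase of lipid droplets, read 10.41, against 6.77, 7.04 and 7.05 in the grafts and 6.31, 6.30 and 6.56 in PNET, a difference of 3.46 ± 0.24 (adjusted p = 0.00273). Both stood over 3 log2 units above every other tumour, and the grafts and PNET lay close together. Tspan4, a tetraspanin, read 11.54, against 7.40, 6.89 and 7.98 in the grafts, a difference of 4.12 ± 0.49 (adjusted p = 0.0171, and 0.0545 without graft 5). Rnh1, the cytosolic ribonuclease inhibitor, read 10.35, against 6.78, 7.16 and 7.22 in the grafts (3.29 ± 0.26, adjusted p = 0.00483). Cars, which charges cysteine onto its transfer RNA, read 11.42, against 8.03, 8.21 and 8.31 in the grafts (3.23 ± 0.27, adjusted p = 0.00526). Tollip, an adaptor that dampens Toll-like receptor signals, read 11.63, against 8.34, 8.58 and 8.66 in the grafts (3.10 ± 0.27, adjusted p = 0.00607). In each of these the 3 grafts lay within about 1 log2 unit of each other and far below the AdCre-induced value.

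At the near end, Zfp941, a zinc finger gene, read 7.86, against 4.66, 5.10 and 4.43 in the grafts (3.13 ± 0.36, adjusted p = 0.0158), and Tpcn2, an endolysosomal cation channel at the far end, 10.50, against 7.01, 7.12 and 7.67 in the grafts (3.23 ± 0.32, adjusted p = 0.0076). Between them, Chid1 (3.39 ± 0.32, adjusted p = 0.00685) and the clathrin adaptor subunit Ap2a2 (3.09 ± 0.26, 0.00568) passed in every fit without a graft, as did the tetraspanin Cd151, the proteasome subunit Psmd13 and the Golgi SNARE Bet1l. Taldo1 of the pentose phosphate pathway (3.10 ± 0.40, adjusted p = 0.0237), the mitochondrial glutamate carrier Slc25a22 (3.11 ± 0.41, 0.0237) and Dhcr7, the last enzyme of cholesterol synthesis (1.98 ± 0.25, 0.0222), did not pass without graft 5 (adjusted p = 0.0648, 0.0962 and 0.0788) or without graft 6 (0.0758, 0.0604 and 0.0609). Slc25a22 also missed it without graft 4 (adjusted p = 0.0509). In all, 15 of the 32 passed in all 3 fits that left out a graft, and 24, 15 and 19 passed without grafts 4, 5 and 6. Those lost had adjusted p of 0.0509 to 0.0612, 0.0511 to 0.112 and 0.0590 to 0.105 in these limma fits. In some of these genes the neurospheres also stood above the grafts. In Dhcr7 the spheres read 8.92 to 8.98, against 8.96 in the AdCre-induced tumour and 6.78 to 7.12 in the grafts. Spheres read 8.77 to 9.16 in Ptdss2 and 9.17 to 9.42 in Taldo1, above the grafts and below the AdCre-induced tumour. In Tpcn2 they read 6.78, 6.89 and 7.27, not above the grafts.

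Other genes of the stretch lay above the grafts without passing, or inside their range. Ccnd1, encoding cyclin D1, which starts the inactivation of the retinoblastoma protein, read 12.81, against 10.57, 7.67 and 10.03 in the grafts and 6.56, 6.30 and 6.38 in PNET. Graft replicate 5 stood well below the other 2, and the difference of 3.39 ± 0.92 did not pass (adjusted p = 0.32). The imprinted growth factor gene Igf2 read 12.11, against 6.18, 7.27 and 10.25 in the grafts, and the neighbouring noncoding H19 10.35, against 7.04, 7.52 and 8.63 in the grafts. The grafts spanned a wide range in Igf2, and neither gene passed (adjusted p = 0.648 and 0.865). Cdkn1c, an imprinted cell cycle inhibitor, read 7.05, against 8.35, 8.66 and 7.0 in the grafts, inside their range. Irf7 and Ifitm3 lie in this stretch too, so 2 of the interferon genes above share it. Without its members there, the interferon-stimulated list kept 2 called genes and a median difference of 2.28, a reading chosen after the values were seen.

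Only 1 named gene was called lower, and the other 2 transcript clusters called lower stand for no single gene. Impact, which in mouse is imprinted and expressed from the paternal copy, encodes an inhibitor of the amino acid sensing kinase GCN2. It read 5.10 in the AdCre-induced tumour, against 8.99, 8.53 and 8.83 in the grafts (8.78 ± 0.23, SD, n = 3), 8.62, 8.05 and 8.12 in PNET, 8.72 and 8.11 in the AdCre spheres and 8.26 in the AdGFP sphere. The AdCre-induced tumour was the lowest of the 10 samples. The difference from the grafts was -3.68 ± 0.34 (adjusted p = 0.00685), and it passed without grafts 4, 5 and 6 (adjusted p = 0.0229, 0.031 and 0.029). Its neighbours on chromosome 18 were not called, but Ttc39c, Osbpl1a and Ss18 lay below the lowest graft. Their differences were -0.78, -0.87 and -0.57, at an unadjusted p of 0.0389, 0.0307 and 0.0423 in limma. Cabyr and Hrh4 also lay just below the lowest graft, with differences of -0.15 and -0.06. Over all named genes of chromosome 18, 54.7% lay below the lowest graft. Osbpl1a, an oxysterol-binding protein gene next to Impact, read 6.53, against 7.43, 7.75 and 7.04 in the grafts (adjusted p = 0.575). Ss18, a chromatin remodelling subunit gene, read 7.87, against 8.41, 8.50 and 8.38 in the grafts (adjusted p = 0.628). Zfp521, a zinc finger gene, read 8.41, against 7.62, 7.91 and 7.50 in the grafts (adjusted p = 0.843).

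Among the imprinted genes, Impact alone passed. Of 28 measured, 0 were called higher and 1 lower, 9 lay above the highest graft and 7 below the lowest, and the median difference was -0.04. The integrated stress response, which GCN2 feeds, had 0 of 20 genes called higher and only Impact lower (9 at an unadjusted p under 0.05), and 17 lay above the highest graft and the median difference was 0.70. Over all named genes, 28.1% lay above the highest graft and 25.0% below the lowest. Slc7a11, the cystine transporter, read 8.74, against 6.37, 5.80 and 5.98 in the grafts (2.70 ± 0.47, adjusted p = 0.0815). Asns, asparagine synthetase, read 10.45, against 9.41, 8.69 and 8.13 in the grafts (1.71 ± 0.47, adjusted p = 0.332), and Trib3, a pseudokinase of the response, 7.73, against 6.68, 6.14 and 5.95 in the grafts (1.47 ± 0.31, adjusted p = 0.142). The kinase gene itself, Eif2ak4, read 7.33, against 6.74, 7.07 and 7.11 in the grafts (adjusted p = 0.88).

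The genes with the next smallest p among those lower in the AdCre-induced tumour did not pass and are given as values. Lbp, the lipopolysaccharide-binding protein, read 4.72, against 7.43, 6.87 and 7.86 in the grafts (-2.67 ± 0.45, adjusted p = 0.0739). Tead2, a transcription factor of the Hippo pathway, read 5.52, against 6.70, 7.24 and 6.96 in the grafts (-1.45 ± 0.28, adjusted p = 0.109). Dixdc1, a Wnt pathway scaffold, read 6.01, against 7.93, 7.91 and 7.90 in the grafts (-1.90 ± 0.37, adjusted p = 0.114), with the 3 grafts nearly equal. Slc5a7, the choline transporter of cholinergic neurons, read 6.08, against 8.13, 8.93 and 8.38 in the grafts (-2.40 ± 0.52, adjusted p = 0.158). Hddc3, Fcho1, Shtn1 and Abca8a had differences of -1.49, -1.68, -1.26 and -2.15 (adjusted p = 0.0739, 0.084, 0.099 and 0.101).

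None of the tumour cell lists had a called member. Astrocyte genes had 0 of 18 called (1 at an unadjusted p under 0.05), 4 above the highest graft and 4 below the lowest, with means of 8.35 in the AdCre-induced tumour and 8.28, 8.34 and 8.47 in the grafts. Oligodendrocyte precursor genes had 0 of 18 called (1 at an unadjusted p under 0.05), 3 above and 8 below, with means of 9.36 in the AdCre-induced tumour and 9.44, 9.34 and 9.20 in the grafts. Mature oligodendrocyte genes had 0 of 18 called (0 at an unadjusted p under 0.05), 0 above and 5 below. Their means of 7.36 in the AdCre-induced tumour and 8.98, 7.63 and 6.82 in the grafts show graft replicate 4 highest, as in Mog, a surface glycoprotein of myelin, at 6.25, against 10.06, 6.65 and 6.08 in the grafts. Kit, the stem cell factor receptor, read 8.32, against 9.57, 11.56 and 9.96 in the grafts (-2.04 ± 0.65, adjusted p = 0.425), and Met, the receptor of hepatocyte growth factor, 7.57, against 5.25, 5.37 and 5.75 in the grafts (2.12 ± 0.86, adjusted p = 0.612). Neural stem and progenitor, neuroblast and mature neuron genes had 0 called of 17, 15 and 20, and 1, 3 and 1 at an unadjusted p under 0.05.

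Cell cycle genes, which p53 and the retinoblastoma protein restrain, had medians close to that of all named genes. Of 29 DNA replication and S phase genes and 23 mitosis genes, 0 were called in either direction (1 each at an unadjusted p under 0.05), with medians of 0.06 and 0.04. Mki67, the proliferation antigen Ki-67, read 7.96, against 8.61, 9.50 and 8.61 in the grafts (adjusted p = 0.648). Of 21 p53 target genes 0 were called (2 at an unadjusted p under 0.05), 6 lay above the highest graft and 9 below the lowest. Cdkn1a, the p53-induced cell cycle inhibitor p21, read 7.18, against 6.33, 5.56 and 5.19 in the grafts (1.49 ± 0.45, adjusted p = 0.392). Endothelial, pericyte, and fibroblast and matrix genes had 0 called of 19, 13 and 18 (0, 1 and 2 at an unadjusted p under 0.05). Dcn, the matrix proteoglycan decorin, had the largest gap there, at 5.94, against 8.98, 8.77 and 10.95 in the grafts (-3.63 ± 1.31, adjusted p = 0.528). A p that misses the threshold with 1 array on 1 side does not show that the derivations are alike.

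Set against the 3 PNET raised by the same injection, the AdCre-induced oligo-astrocytoma had 823 transcript clusters higher (3.54%) and 359 lower (1.54%). This comparison shares the AdCre-induced array with the one above, so its values are given only side by side. Ifitm3 differed from PNET by 4.60 ± 0.36 (adjusted p = 0.000562), against 5.04 ± 0.36 from the grafts, and Gbp5 by 3.43 ± 0.34 (0.00155), against 3.60 ± 0.34. Impact differed from PNET by -3.16 ± 0.34 (adjusted p = 0.00216), Ptdss2 by 3.53 ± 0.25 (0.000429) and Irf1 by 2.17 ± 0.28 (0.00426). Trim25 and Nmi, called against the grafts, did not pass against PNET, at 0.95 ± 0.32 (adjusted p = 0.152) and 1.41 ± 0.34 (0.0559). Ccnd1, not called against the grafts, passed against PNET at 6.40 ± 0.92 (adjusted p = 0.00777).

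Outside chromosome 7, the median over a whole chromosome lay away from 0 in a few cases. The median difference of the 445 named genes of chromosome 12 was 0.32, and 52.4% of them lay above the highest graft and 8.76% below the lowest. On chromosome 18 the median of 358 genes was -0.29, with 9.22% above and 54.7% below. Chromosomes 8 and 17 had medians of -0.18 and -0.14, with 42.6% and 44.3% of genes below the lowest graft. The other autosomes and the X had medians from -0.09 to 0.10. On chromosomes 12, 8, 17 and 18 the called genes were 0, 2, 2 and 2, so these medians came from many genes that singly did not pass. No test was made of them.

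**Figure D5:**
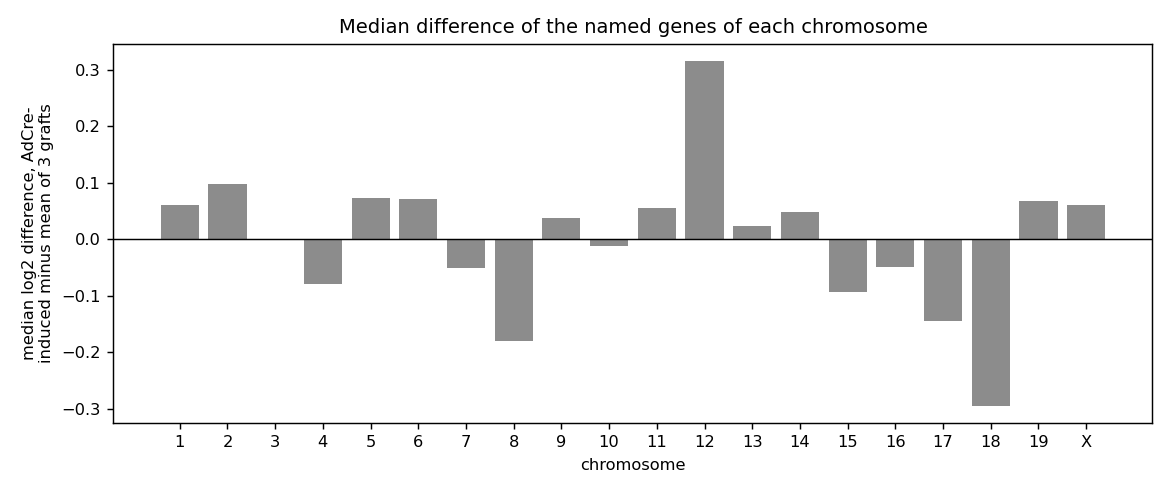
Median log2 difference of the AdCre-induced tumour from the mean of the 3 grafts (vertical axis) over the named genes of each chromosome (horizontal axis, 1 bar each, without the Y). Chromosome 12 stands highest at 0.32 and chromosome 18 lowest at -0.29, while chromosome 7 as a whole is near 0 at -0.05 although its distal stretch has a median of 1.60.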

How the data were processed

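Total RNA of 4 oligo-astrocytomas, 3 PNET and 3 neurosphere cultures was hybridised to Affymetrix mouse exon arrays, of which the series text names 2 versions without saying which sample was run on which. The deposited log2 values, 1 per transcript cluster and sample, were made by the authors in Partek by RMA, with mm8 as the genome build, per the submitters' processing notes, with no version stated. RMA models and removes background, equalizes the quantiles of the arrays and fits 1 value per probe set, and the changes of dim probes come out compressed. The deposited columns do not share 1 distribution, and they were used as they stand, with no filter. For arrays, precision is limited by their number.

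Samples were grouped by their labels. limma 3.58.1 in R 4.3.3 (lmFit, eBayes) was fitted to all 10 arrays in 5 groups, and the AdCre-induced tumour was compared with the grafts and with PNET. Tests were two-sided with Benjamini-Hochberg adjustment over all 23238 transcript clusters and a threshold of 0.05, and the lone AdCre-induced array was assumed to vary like the replicated groups. In GEO's platform annotation 14939 transcript clusters carry a single gene symbol, 989 carry several and 7310 carry none. A further rule picked the brightest transcript cluster on average where a gene had more than 1, which applied to 131 genes. Chromosomes, gene order and promoters come from RefSeq tables on GRCm38.p6, which differs from mm8.

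The members and the 34 gene lists (709 genes, 563 measured, 14 in more than 1 list) were chosen with earlier results of these data known, and no list was tested as a set. Named genes were the 15 largest rises and the genes called lower, filled to 15 by the smallest p, up to 4 called members per list (or the 2 largest differences), and Ifitm3, Gbp5, Impact and Rb1. Other genes named, among them Oasl2, Bst2, Isg20, Irf7, Ccnd1 and the neighbours of Impact, were chosen after their values were seen. The fit was tested on simulated data. Alternatives were quantile normalization, median centring, a filter on dim transcript clusters, fits of fewer groups, trended and robust variance, array weights, leaving out each graft, the mean over the transcript clusters of a gene and, chosen after the data were seen, brightness without the AdCre-induced array and the interferon lists without their members on distal chromosome 7.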

Additional observations from a re-analysis of the deposited data

How the results depend on the processing

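With 1 AdCre-induced array, the calls rest on the spread of the other groups. Against 70 transcript clusters called (67 higher, 3 lower, 59 named genes higher), the fit of the 7 tumours gave 45 (43 higher, 36 named genes higher), and the fit of the 4 oligo-astrocytomas gave 0 in limma in each direction, with 1687 at an unadjusted p under 0.05. Array weights gave 5 lower. Leaving out 1 graft gave 28 to 75 called, 27 to 72 higher, 1 to 3 lower and 24 to 62 named genes higher, with fewest without graft 5. Of the 60 named genes called, 54, 57, 54, 57 and 60 remained under quantile normalization, median centring, the filter, trended variance and array weights, 36 in the fit of the 7 tumours and 45, 24 and 26 without grafts 4, 5 and 6. Taking the mean over a gene's transcript clusters gave 78 named genes higher. All 60 called genes kept their sign in these alternatives, apart from the filter, under which 54 of them have a value and kept it. Of the list members not called, Bst2, Cxcl10, Dtx3l and Irf7 passed under the filter, array weights and the gene mean, and Cfb, Epsti1, Erap1, Gbp7, Parp14, Psmb9 and Slc7a11 with array weights. Ccl12, Irf8 and Itgam passed without graft 4. Centring moved the transcript clusters above the highest graft to 5391 and those below the lowest to 6890, against 6546 and 5714 as deposited. The residual degrees of freedom were 5 in the main fit and 2 in the fit of the 4 oligo-astrocytomas. The cause of the losses was not tested. No paired analysis was possible because the AdCre-induced tumour and the grafts share no replicate number.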

Other observations

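Gene groups not described above held few calls. Cholesterol synthesis genes had 1 of 15 called higher (Dhcr7, and 0 without graft 5 or graft 6) and 0 lower, 11 above the highest graft and 0 below the lowest, with a median difference of 0.38. Hypoxia and glycolysis genes had 0 of 18 called in limma (2 at an unadjusted p under 0.05) and a median of -0.05. Ddit4, an inhibitor of the growth kinase mTORC1, read 6.38 in the AdCre-induced tumour, against 7.44, 7.41 and 7.68 in the grafts (-1.14 ± 0.29, adjusted p = 0.284). Immediate early and stress genes had 0 of 21 called (2 at an unadjusted p under 0.05), 11 above the highest graft and 4 below the lowest, and a median of 0.29. Fos, a transcription factor induced by growth signals and by handling of tissue, read 6.82, against 6.68, 5.34 and 4.71 in the grafts (adjusted p = 0.805). Receptor tyrosine kinases and ligands had 0 of 26 called (6 at an unadjusted p under 0.05), with Hgf, the ligand of Met, at 5.47, against 4.33, 4.10 and 4.10 in the grafts (adjusted p = 0.583).

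Retinoblastoma pathway genes had 0 of 15 called and 1 at an unadjusted p under 0.05, Ccnd1. Ependyma and choroid plexus genes had 0 of 10 called (0 at an unadjusted p under 0.05) and a median of -0.24, and both red blood cell genes measured lay below the lowest graft. The Y-linked genes Eif2s3y and Kdm5d read 2.70 and 3.39 in the AdCre-induced tumour, below graft ranges of 4.29 to 5.77 and 4.08 to 4.88 (adjusted p = 0.209 and 0.475 in limma). PNET read 2.89 to 3.45 and 3.26 to 3.61, and the spheres 2.74 to 3.41 and 3.24 to 3.61. In both genes the grafts thus stood above all other samples. The labels give no sex, so a sex difference and the derivation cannot be told apart.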
